A study of Caenorhabditis elegans with 34 samples.

Results

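The difference in messenger RNA level between wild-type and glp-4(bn2) worms of Caenorhabditis elegans was followed from larval stage L3 to L4, and the probes at which it grew or shrank were separated by which strain changed. The quantity is the wild-type minus glp-4 difference at L4 less the same difference at L3, called growth below, in log2 units. It was positive where the wild-type excess was larger at L4. Its values came from 16 of the 34 arrays of the series, 4 for each of glp-4 L4, wild-type L4, glp-4 L3 and wild-type L3. Its test took the spread from all 29 arrays with a reference, L2 and adult arrays included. A probe was tested where each of the 4 groups held at least 2 values, which left 10936 of 13323 probes. Of these 10936, 270 probes gained a wild-type excess and 18 lost one; at an unadjusted p below 0.05 the growth was positive for 6.29% and negative for 3.56% of those tested. With the spread of the 16 arrays alone 180 probes gained, 173 of them among the 270, and 6 lost.

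A hermaphrodite of this species makes sperm during the last larval stage and then switches to oocytes, so the same gonad first fills with male and later with female germ cells. Sperm form after meiosis in a short burst and carry a set of transcripts seen in few other cells, many of them from large gene families. In glp-4(bn2) mutants kept at the restrictive temperature the germ cells hardly multiply, and the soma develops without a proliferating germ line. RNA of whole worms was measured, so that fewer cells of a type and less RNA per cell cannot be told apart.

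The wild type was N2, and the mutant carried the temperature-sensitive bn2 allele of glp-4, which the labels describe as having no germ line. Each L3 and L4 array set RNA of synchronized worms of 1 numbered worm batch, 1 to 4, against a reference pool of N2 RNA, and 1 of the glp-4 L2 arrays combined batches 2 and 4; no label gives the temperature at which these worms grew. A further 5 arrays set fem-3(q23) worms, whose germ line makes sperm, directly against fem-1(hc17) worms, whose germ line makes oocytes, with a female soma in both. The adult arrays, 4 of glp-4 and 3 of wild type, and the L2 arrays, 3 of each strain, served as further readouts. No probe was annotated as glp-4, so the mutated gene itself was not checked. The annotation also carries few classical germline symbols: the markers of germ cells of both kinds that could be tested were lotr-1, mip-1, mip-2, syp-6 and tost-1. Of these, 4 of 5 were higher in wild type at L4, against 12.1% of all tested probes, and 3 of 5 at L3, against 2.19%.

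The 16 arrays held 10599 to 11405 values each, with array medians between -0.109 and 0.043. The stage is labelled in conflicting ways on 2 arrays. The details of wild-type L4 replicate 1 say L3, where its title and subcategory say L4, and those of replicate 4 say L34. Probes at least 2 log2 higher in fem-3, described below, had medians of 1.69 and 0.87 on replicates 1 and 4. Their medians were 1.41 and 1.31 on wild-type L4 replicates 2 and 3, and -0.43 to 0.16 on the wild-type L3 arrays. Replicate 4 had a mean correlation of 0.75 with the wild-type L3 arrays and 0.739 with its own group. Replicates 1 to 3 had 0.404 to 0.672 with wild-type L3 and 0.697 to 0.82 with their own group. The stage of the 2 arrays was not tested further. The reference is worded as a mixed control for batches 2 and 4 and as REF-vjr for batches 1 and 3, in each of the 4 groups. A constant difference between mixed control and REF-vjr thus cancels in the growth. In batches 2 and 4 the titles of the wild-type L3 arrays say N2 mixed control, and those of the other groups leave out N2. Whether that marks another pool is not stated, and such a difference would not cancel. Strain differences are given as wild type minus glp-4 and stage changes as L4 minus L3. The labels number the worm batches but say no more of how they were raised, so the p-values cover the spread among these arrays and may miss wider biological variation. The 2387 probes not tested include 205 with at least 3 values on the wild-type L4 arrays, 163 of them with fewer than 2 values in a glp-4 group.

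The growth was almost entirely a matter of the wild type. Among the 270 gained probes (2.47% of those tested) the median growth was 2.05, with quartiles of 1.51 and 2.67. Over the same probes the glp-4 level changed by a median of -0.03 between L3 and L4, and the wild-type level by a median of 1.98. A rise of wild type from L3 to L4 was called for 269 of the 270 by limma at an adjusted p below 0.05, where 5.5% of all tested probes were called. A fall of glp-4 was called for 0 of them, where 0.0274% of all tested probes were called, and 2 of the 270 fell at an unadjusted p below 0.05. Both changes use the arrays that picked the probes, so these counts describe the growth and do not test it.

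**Figure D1:**
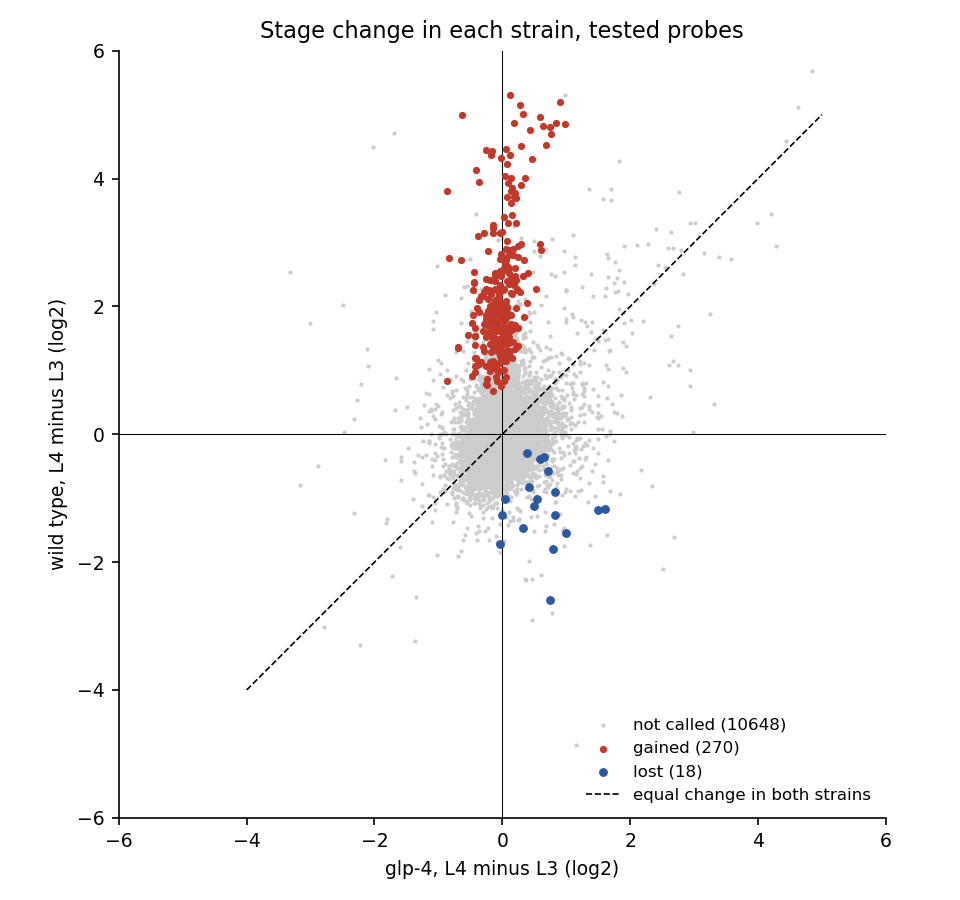
Each point is 1 of 10936 tested probes, with its change from L3 to L4 in glp-4 (horizontal, log2) and in wild type (vertical, log2); the dashed line marks equal change in both strains. The 270 gained probes (red) form a vertical band at a glp-4 change between -0.87 and 0.98, while the 18 lost probes (blue) lie below the line, most of them right of the vertical axis.

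Of the 2 parts, the wild-type change was the larger in size for 269 gained probes and the glp-4 change for 1. The glp-4 change of single gained probes ran from -0.87 to 0.98, and its size was over 0.5 for 19 of them. The exception to a called wild-type rise was ZC581.7, a gene on chromosome I. It read 0.52, 0.61, 0.04 and 0.25 on the glp-4 L4 arrays, against 2.16, 1.84, 2.15 and 2.17 on the wild-type L4 arrays. At L3 it read 0.58, 1.08, 1.55 and 1.70 in glp-4, against 0.86, 0.97, 2.25 and 0.89 in wild type. The strains overlapped at L3 and stood apart at L4, with the glp-4 arrays lower and the wild-type arrays higher than most of their L3 values. Its growth was 1.71 ± 0.42 (SE, adjusted p = 0.0213), made of a glp-4 change of -0.87 ± 0.29 (adjusted p = 0.38) and a wild-type change of 0.84 ± 0.29 (adjusted p = 0.0908), neither of them called. The growth of ZC581.7 was no longer called on leaving out glp-4 L3 replicate 3 or 4, glp-4 L4 replicate 3, wild-type L4 replicate 1 or wild-type L3 replicate 4, with estimates of 1.56 to 2.05 over all arrays left out in turn, nor with each strain's batch as a block (adjusted p = 0.0769), with the 16 arrays alone (0.0654) or after quantile normalization (0.149).

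A called wild-type rise did not always come with a called growth. Wild type rose at 602 probes, of which 333 were not gained. These 333 had a median wild-type change of 1.25 and a median glp-4 change of 0.14, and their growth, with a median of 0.97, was positive for 313. Of the 39 probes that rose in glp-4 (0.357% of those tested), 27 also rose in wild type, by medians of 2.64 in glp-4 and 2.35 in wild type.

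The gained probes stood apart on every wild-type L4 array. Their median on the 4 glp-4 L4 arrays lay between -0.67 and -0.51, against 2.31, 2.03, 1.84 and 1.05 on wild-type L4 replicates 1 to 4. At L3 it lay between -0.66 and -0.37 in glp-4, against 0.01, -0.10, 0.09 and -0.67 in wild type. Replicate 4 was the lowest wild-type array at both stages, and at L3 its median was no higher than that of any glp-4 array. Over single probes, all wild-type L4 arrays read above all wild-type L3 arrays for 269 of the 270, against 6.73% of all tested probes. All wild-type L3 arrays read above all glp-4 L3 arrays for 17 of the 270, against 5.56% of all tested probes. All glp-4 L4 arrays read above all glp-4 L3 arrays for 5, against 3.47%. The median growth within a batch was 2.48 in batch 1, 2.18 in batch 2, 1.66 in batch 3 and 1.80 in batch 4. Every gained probe that could be computed in a batch was positive there, as was every gained probe under each alternative setting tried, though the probes were chosen on these arrays.

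Among named genes the largest gains belonged to genes known only by a sequence name. F10D11.3 (chromosome I) read -4.28, -4.50, -4.29 and -4.25 on the glp-4 L4 arrays, against 3.44, 3.23, 2.60 and 1.19 on the wild-type L4 arrays. L3 arrays gave -4.30, -4.16, -4.32 and -3.51 in glp-4, against -0.74, -1.84, -0.54 and -4.18 in wild type. All wild-type L4 arrays were above all others, and at L3 replicates 1, 2 and 3 of wild type were above glp-4 while replicate 4 was among the glp-4 values. The growth was 4.69 ± 0.98 (SE, adjusted p = 0.0062), from a glp-4 change of -0.26 and a wild-type change of 4.44.

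F58A6.9 (chromosome II) had -3.59, -2.91, -3.38 and -3.18 on glp-4 L4 arrays, against 3.39, 3.13, 2.59 and 0.95 on wild-type L4 arrays. Its L3 values were -3.10, -3.63, -3.48 and -3.05 in glp-4, against -1.30, -1.70, -1.20 and -3.62 in wild type. The pattern was that of F10D11.3, with wild-type L3 replicate 4 down among the glp-4 values, and the growth was 4.42 ± 0.70 (SE, adjusted p = 0.000994). C48E7.7 (chromosome I) had -4.56, -3.43, -3.93 and -3.88 at L4 in glp-4, against 3.11, 3.01, 2.38 and 0.97 in wild type. At L3 it had -4.15, -3.63, -4.19 and -3.73 in glp-4, against -1.26, -1.88, -0.69 and -3.96 in wild type, and grew by 4.34 ± 0.76 (SE, adjusted p = 0.00171). The strain difference of C48E7.7 was already called at L3 (1.98 ± 0.54, adjusted p = 0.0427). C45G9.4 (chromosome III) grew by 4.56 ± 1.05 (SE, adjusted p = 0.018), but its L3 arrays were scattered: 0.70, -1.46, -1.05 and -1.81 in glp-4, against -4.16, -0.06, -0.19 and -1.71 in wild type. Batch 1 alone gave C45G9.4 a growth of 9.47, against 2.06 to 3.74 in the other batches, and with each strain's batch as a block its growth was not called (adjusted p = 0.0501), nor with the 16 arrays alone (0.0546).

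**Figure D2:**
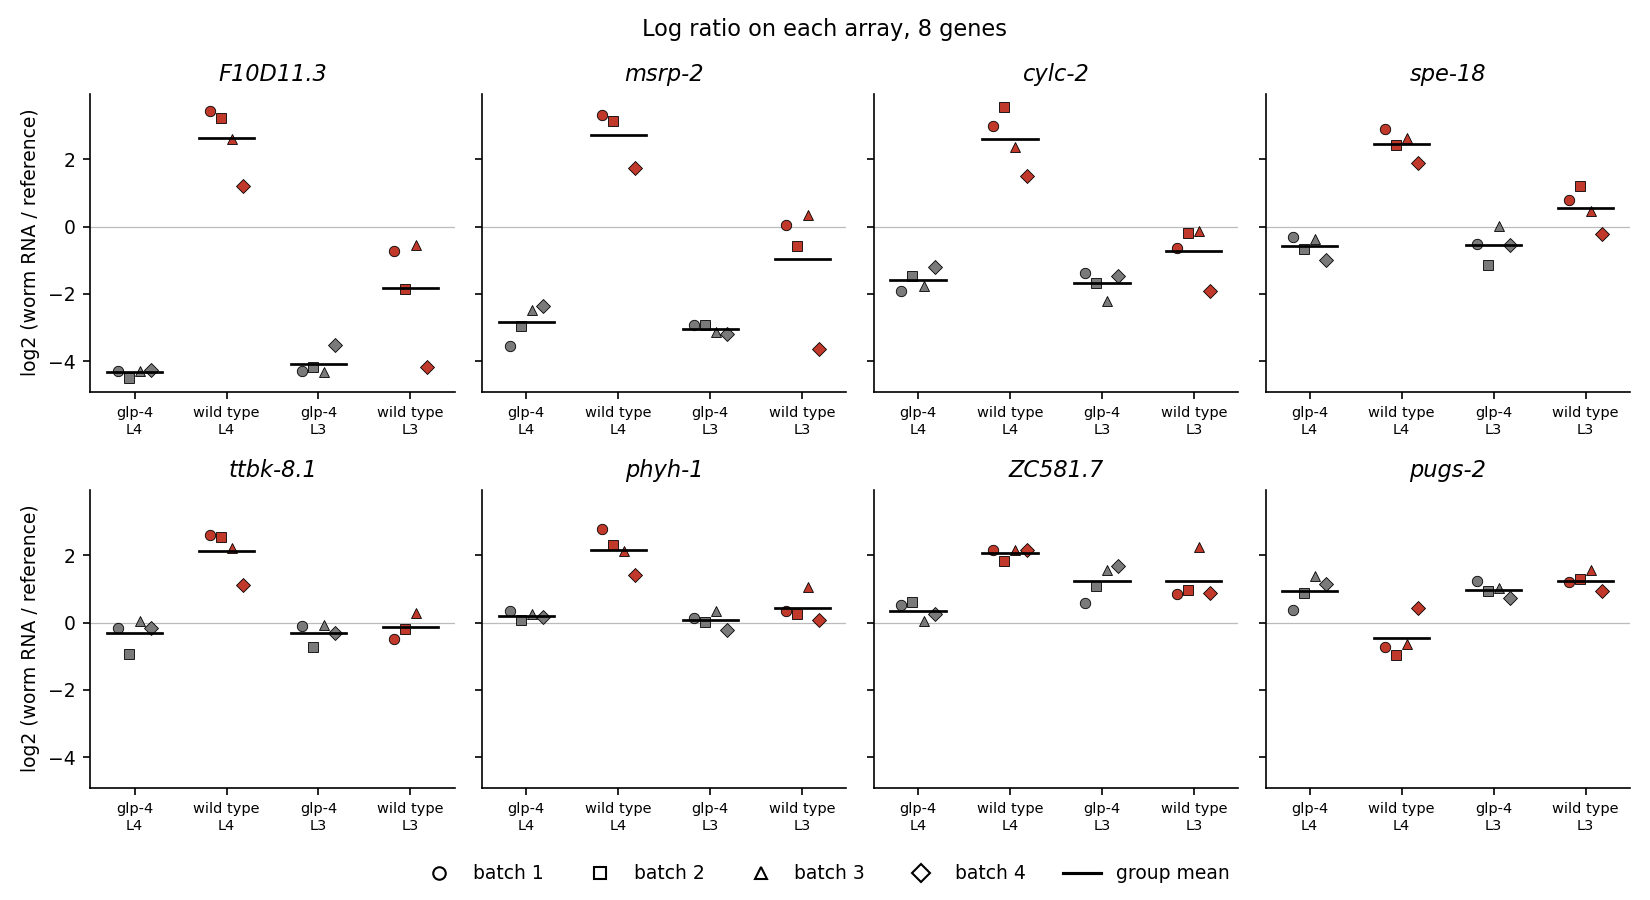
Log2 ratio of worm RNA over reference (vertical) on each of the 16 arrays for 8 genes, with glp-4 in grey, wild type in red, symbols for the worm batch and lines for group means. The wild-type L4 arrays lie above all others for the first 6 genes, and the L4 values of ZC581.7 are 0.04 to 0.61 in glp-4 and 1.84 to 2.17 in wild type. For pugs-2 the wild-type L4 arrays lie below all L3 arrays and overlap the glp-4 L4 arrays.

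The other 6 of the 10 largest sequence-named gains were R09E10.6 (4.15, chromosome IV), F08H9.2 (4.00, V), F17E9.5 (3.71, IV), F41F3.3 (3.66, V), T23B3.5 (3.64, I) and C05B5.2 (3.59, III). Their glp-4 changes ran from -0.83 for C05B5.2 to 0.15 for F17E9.5, and their wild-type changes from 2.76 for C05B5.2 to 4.23 for R09E10.6. For 9 of the 10 genes the call held with any single array left out. That of C05B5.2, which had no value on glp-4 L4 replicate 3 and wild-type L3 replicate 1, was lost without wild-type L4 replicate 1 or 2, without glp-4 L4 replicate 2 or without wild-type L3 replicate 4, with estimates of 2.86 to 3.98 over all arrays left out in turn. It was also lost with each strain's batch as a block (adjusted p = 0.0688) and with the 16 arrays alone (0.0891).

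Of the gained probes 198 had a gene name and 17 a gene-class symbol. Of the msrp genes, 4 of 5 tested gained, with a median growth of 1.58 over the 5 against -0.05 over all tested probes. msrp-2 (chromosome I) read -3.56, -2.94, -2.47 and -2.35 on the glp-4 L4 arrays, against 3.32, 3.12 and 1.75 on the 3 wild-type L4 arrays that had a value. On the L3 arrays it had -2.93, -2.92, -3.12 and -3.17 in glp-4, against 0.05, -0.58, 0.34 and -3.64 in wild type. Wild-type L3 replicate 4 lay below all glp-4 arrays and the other wild-type L3 arrays lay above them. Its growth of 3.48 ± 0.93 (SE, adjusted p = 0.0459) was close to the threshold. Of the 16 ways to leave out 1 array, the call was kept only without wild-type L4 replicate 4 or wild-type L3 replicate 1 or 3, with estimates of 2.59 to 3.97 over all arrays left out in turn. With the 16 arrays alone it was not called (adjusted p = 0.141).

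msrp-5 and msrp-6 are next to each other on chromosome II in the reference gene table. msrp-5 had -0.45, -0.59, -0.79 and -0.46 on glp-4 L4 arrays, against 1.72, 1.42, 1.84 and 0.67 on wild-type L4 arrays. At L3 it had 0.20, -0.33, -0.69 and -0.44 in glp-4, against -0.27, -0.34, -0.36 and -0.87 in wild type, so the strains overlapped at L3. Growth was 2.13 ± 0.43 for msrp-5 (SE, adjusted p = 0.00469) and 1.58 ± 0.33 for msrp-6 (SE, adjusted p = 0.00661). For msrp-3 it was 1.44 ± 0.39 (adjusted p = 0.0481), called only with no array or wild-type L4 replicate 4 left out (1.13 to 1.71) and not with each strain's batch as a block (adjusted p = 0.0637), with the 16 arrays alone (0.0735) or after quantile normalization (0.066). The fifth member tested, msrp-4, had a growth of 0.94 that was not called (adjusted p = 0.49), beside a glp-4 change of 0.38 and a wild-type change of 1.31. Shared sequence within such families cannot be told apart from shared change on spotted probes.

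spe-18, which is needed to pack major sperm protein into fibrous bodies in developing sperm, read -0.32, -0.67, -0.36 and -0.98 on the glp-4 L4 arrays, against 2.89, 2.41, 2.62 and 1.90 on the wild-type L4 arrays. Its L3 readings were -0.52, -1.15, 0.03 and -0.54 in glp-4, against 0.78, 1.20, 0.47 and -0.22 in wild type. Wild type was the higher strain in every batch at both stages, and the distance widened by 1.94 ± 0.45 (SE, adjusted p = 0.0149). spe-18 was the 1 of 7 tested genes of the sperm list to gain; the list's median growth was 0.30. pei-1, a component of granules that sperm carry, had 1.27 ± 0.37 and missed the threshold (adjusted p = 0.0833), although its wild-type rise of 1.49 was called (adjusted p = 0.000476). Without wild-type L3 replicate 2 its growth was 1.47 and was called (adjusted p = 0.0442). The growths of the other 5 ran from -0.42 for spe-51 to 0.60 for spe-49, while all 7 genes were called higher in fem-3 than in fem-1.

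cylc-2, named for the cylicins of the mammalian sperm head, read -1.91, -1.46, -1.77 and -1.20 on the glp-4 L4 arrays, against 2.98, 3.55, 2.38 and 1.50 on the wild-type L4 arrays. For L3 the values were -1.37, -1.67, -2.20 and -1.45 in glp-4, against -0.62, -0.19, -0.14 and -1.90 in wild type, where replicate 4 again lay with the glp-4 arrays. Its growth was 3.22 ± 0.53 (SE, adjusted p = 0.00106), from a glp-4 change of 0.09 and a wild-type change of 3.31.

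Among signalling enzymes, 2 of 5 tested tau-tubulin kinase genes gained. These ttbk genes are named for a mammalian kinase family that phosphorylates tau and tubulin. ttbk-8.1 read -0.17, -0.92, 0.04 and -0.15 on the glp-4 L4 arrays, against 2.59, 2.54, 2.22 and 1.11 on the wild-type L4 arrays. At L3 it read -0.11, -0.73, -0.09 and -0.30 in glp-4, against -0.48, -0.19 and 0.28 on the 3 wild-type arrays with a value. The L3 groups overlapped, the L4 groups did not, and the growth was 2.24 ± 0.42 (SE, adjusted p = 0.00327). ttbk-4 had -0.18, -0.89, -0.43 and -0.94 in glp-4 at L4, against 2.42, 1.83, 1.99 and 1.59 in wild type. Its L3 values were -0.59, -0.61, -0.03 and -0.64 in glp-4, against 0.15, 0.56, 0.18 and -0.42 in wild type, and its growth was 1.98 ± 0.39 (SE, adjusted p = 0.00442). The growths of ttbk-5 (0.47), ttbk-6 (0.30) and ttbk-7 (-0.25) were not called, at adjusted p of 0.534, 0.819 and 0.868. Nor was that of another tested ttbk-5 probe (0.31, adjusted p = 0.885). A second probe annotated ttbk-4 had too few values to test.

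In the list of kinases and phosphatases 1 of 7 tested genes gained, ptp-5.1 of the protein tyrosine phosphatase class. It averaged -0.22 ± 0.15 in glp-4 and 1.50 ± 0.70 in wild type at L4, and -0.08 ± 0.26 in glp-4 and 0.14 ± 0.27 in wild type at L3 (SD, n = 4 each). The growth was 1.50 ± 0.36 (SE, adjusted p = 0.0206), and it was not called without wild-type L4 replicate 1, glp-4 L4 replicate 2, glp-4 L3 replicate 1 or wild-type L3 replicate 4 (1.22 to 1.78 over all arrays left out in turn), nor with the 16 arrays alone (adjusted p = 0.0762).

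phyh-1, named for the human peroxisomal enzyme phytanoyl-CoA hydroxylase, averaged 0.21 ± 0.12 in glp-4 and 2.16 ± 0.56 in wild type at L4, and 0.07 ± 0.23 in glp-4 and 0.43 ± 0.43 in wild type at L3 (SD, n = 4 each). It grew by 1.59 ± 0.36 (SE, adjusted p = 0.0133), a call that was lost after quantile normalization (1.28, adjusted p = 0.0548) and on the REF-vjr arrays alone (adjusted p = 0.222). oac-60, of a class of acyltransferase homologs and listed as a pseudogene, grew by 1.61 ± 0.32 (SE, adjusted p = 0.00466), with a glp-4 change of 0.03 and a wild-type change of 1.64. The remaining 6 symbols belong to families for which no role is given here.

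spsp-1 (chromosome I) gained in every batch. It read -1.36, -1.24, -1.19 and -1.15 on the glp-4 L4 arrays, against 2.76, 2.44, 2.30 and 1.19 on the wild-type L4 arrays. L3 arrays gave -1.04, -0.92, -0.75 and -0.49 in glp-4, against -0.02, -0.20, 0.31 and -0.98 in wild type. Its 4 batches gave growths of 3.11, 2.95, 2.43 and 2.83, and the fit 2.83 ± 0.40 (SE, adjusted p = 0.000508). The glp-4 L4 arrays of spsp-1 all lay below the glp-4 L3 arrays, by a mean of -0.44 that was not called (adjusted p = 0.883).

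melo-3 read -1.10, -0.74, -0.97 and -0.65 on the glp-4 L4 arrays, against 3.15, 3.43, 2.70 and 2.18 on the wild-type L4 arrays. At L3, where batch 1 had no value, it read -0.94, -1.24 and -1.28 in glp-4, against 0.12, 0.83 and -1.27 in wild type. It grew by 2.69 ± 0.59 (SE, adjusted p = 0.0163), while melo-1 (0.29) and melo-2 (0.23), which were not higher in fem-3, did not pass the test.

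Both nsph genes tested gained. nsph-2 read -0.58, -0.39, -0.48 and -0.49 on the glp-4 L4 arrays, against 2.63, 1.88, 1.71 and 0.74 on the wild-type L4 arrays. On the L3 arrays it had -0.34, -0.82, -0.04 and -0.57 in glp-4, against -0.21, -0.33, 0.04 and -0.02 in wild type, and it grew by 1.91 ± 0.41 (SE, adjusted p = 0.00794). nsph-3.2 grew by 1.84 ± 0.46 (SE, adjusted p = 0.0279), from a strain difference of 1.20 that was called at L3 (adjusted p = 0.0431). Another probe annotated nsph-3.2 had too few values to test. Its fem-3 minus fem-1 difference was 0.23 and not called, against 3.21 for the tested probe. txt-1 grew by 1.32 ± 0.36 (SE, adjusted p = 0.0478), the 1 of 6 txt genes to gain. Its call was lost with the batch as a block over all arrays (adjusted p = 0.0663), and with each strain's batch as a block (adjusted p = 0.0525). The calls of nsph-3.2 and txt-1 were lost on leaving out 8 and 12 of the 16 arrays in turn, with estimates of 1.58 to 2.07 and of 1.06 to 1.48. With the 16 arrays alone nsph-3.2 (adjusted p = 0.0696) and txt-1 (0.117) were not called, and after quantile normalization txt-1 was not (0.0821).

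nssp-47 was the 1 of 24 tested nssp genes to gain, and it was not called in fem-3 against fem-1. It read -1.21, -0.25, -1.12 and -1.48 on the glp-4 L4 arrays, against 1.07, 1.50, 0.44 and -0.03 on the wild-type L4 arrays. Its L3 readings were -0.98, 0.33, -0.44 and -0.18 in glp-4, against -0.65, -0.07, -0.91 and -0.79 in wild type. Its growth was 2.05 ± 0.52 (SE, adjusted p = 0.0296), with a glp-4 change of -0.70 (adjusted p = 0.796) and a wild-type change of 1.35 (adjusted p = 0.0223). Leaving out 1 array ended the call for 9 of the 16 arrays, with estimates of 1.80 to 2.31, and so did the fit of the 16 arrays alone (adjusted p = 0.0662).

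clc-10, of the claudin-like class, was not called in spite of a growth of 2.44 ± 0.71 (SE, adjusted p = 0.0804). Wild-type L3 replicate 1 read 1.39, where the other wild-type L3 arrays read -1.01, -0.21 and -1.20. Its growth was called with the batch as a block (adjusted p = 0.0225), with each strain's batch as a block (adjusted p = 0.0436), without wild-type L3 replicate 1 (2.99, adjusted p = 0.00658) and without wild-type L4 replicate 4 (2.83, adjusted p = 0.0162).

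The arrays of fem-3 against fem-1 were not used by the growth and gave it an independent readout. Of the 270 gained probes 264 (97.8%) were higher in fem-3, against 19.1% of all tested probes, with a median difference of 4.09 against 0.14. The share of probes gained followed the size of that difference. It was 0.0223% of 8959 probes between -1 and 1 log2, 15.3% of 242 between 2 and 3, 41.9% of 186 between 3 and 4, 69% of 116 between 4 and 5, and 85.3% of 75 above 5. A dye effect cannot be told apart from the strain difference on the fem arrays, where fem-3 was always in red.

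**Figure D3:**
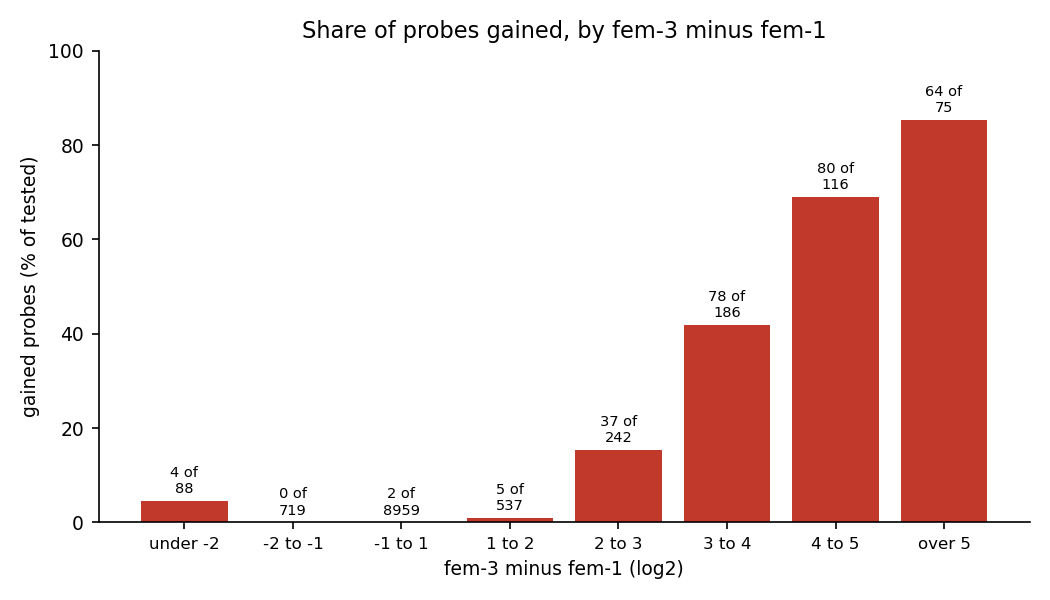
Share of tested probes that gained a wild-type excess from L3 to L4 (vertical, percent) by the fem-3 minus fem-1 difference (horizontal, log2), with counts above the bars. The share was 0.931% of the 537 probes between 1 and 2 log2 and 85.3% of the 75 probes above 5.

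Read the other way, 615 tested probes were at least 2 log2 higher in fem-3, and 258 of them (42%) gained. Their growth was positive for 591, with a median of 1.29, a median glp-4 change of 0.02 and a median wild-type change of 1.28. Among the 191 probes at least 4 log2 higher in fem-3 the gained share was 75.4%, and 179 (93.7%) had a called wild-type rise. Oocyte-type probes were fewer. Of 87 that were at least 2 log2 higher in fem-1, 4 (4.6%) gained, against 2.47% of all tested probes. The 87 had a median growth of 0.75, against -0.05 over all tested probes. Their median glp-4 change was -0.09 and their median wild-type change 0.74. A wild-type rise was called for 20 of them (23%), against 5.5% of all tested probes. The size of growth of these probes differed between batches: the median was 1.17 in batch 1 and 1.52 in batch 2, but 0.28 in batch 3 and 0.03 in batch 4.

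Gained probes that were not called higher in fem-3 numbered 6, of which 3 had a gene name: nssp-47, T08B2.12 and T01C3.3, the last 2 chosen for naming after their values were seen. T08B2.12 (chromosome I) grew by 3.45 ± 0.48 (SE, adjusted p = 0.000508), and its fem-3 minus fem-1 difference of 2.25 ± 0.78 missed the threshold (adjusted p = 0.0616). T01C3.3 (chromosome V) was lower in fem-3, by -2.56 ± 0.25 (SE, adjusted p = 0.000428). It read between -4.64 and -3.64 on the glp-4 L4 arrays, against -0.76, 0.21, -2.08 and -3.30 on the wild-type L4 arrays. For L3 the values were -2.77, -4.19, -3.77 and -3.66 in glp-4, against -3.67, -3.84, -3.42 and -4.41 in wild type. All wild-type L4 arrays were above all wild-type L3 arrays, but replicate 4 only narrowly, and glp-4 L3 replicate 1 was above wild-type L4 replicate 4. The growth was 2.80 ± 0.69 (SE, adjusted p = 0.0231), and it was not called without wild-type L4 replicate 1, glp-4 L4 replicate 2, wild-type L3 replicate 4 or glp-4 L3 replicate 1, where it was 2.53 to 2.61. Nor was it called with each strain's batch as a block (adjusted p = 0.054) or with the 16 arrays alone (0.127). T01C3.3 rose further by 2.56 ± 0.53 in wild-type adults over wild-type L4 (adjusted p = 0.00177), unlike most gained probes.

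The strain differences at L4 and L3 are the terms of the growth, so their values for the gained probes are a description. At L4 the strain difference was called for all 270, with a median of 2.42 (12.1% of all tested probes were called higher in wild type). At L3 it was called for 17 (6.3%, against 2.19% of all tested probes), with a median of 0.36, quartiles of 0.12 and 0.81 and a highest value of 2.38, and it was positive for 230. The L2 arrays, which entered the growth only through the spread of its test, gave a median strain difference of -0.09 over 254 gained probes. Of these, 0 were called by limma in either direction (0.227% of all tested probes were called higher and 0.187% lower). In wild type 2 were higher and 4 lower at an unadjusted p below 0.05. The rise of wild type from L2 to L3 had a median of 0.23 over 255 gained probes. It was called for 0 of them by limma (0.126% of all tested probes rose and 0.0483% fell), with 37 higher and 4 lower at an unadjusted p below 0.05. All L2 arrays had the reference worded REF-vjr, so stage and wording cannot be told apart for the pooled L2 to L3 change.

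The adult arrays, which likewise entered the growth only through the spread of its test, held the difference at a lower level. In adults 240 of the 270 probes (88.9%) were higher in wild type, against 21.2% of all tested probes, with a median difference of 1.60. The median of the gained probes on the wild-type adult arrays was 0.88 to 1.45, and on the glp-4 adult arrays -0.70 to -0.39. Wild type was lower in adults than at L4 for 87 of the 270 and higher for 4, against 12.1% and 10.5% of all tested probes. In glp-4 5 of the 270 were higher in adults than at L4, against 2.58% of all tested probes. These counts share the wild-type L4 arrays that picked the probes, and all adult arrays had the reference worded as a mixed control. Probes at least 2 log2 higher in fem-3, chosen without the L3 and L4 arrays, took the same course, with wild-type array medians of 0.87 to 1.69 at L4 and 0.48 to 0.84 in adults. Oocyte-type probes did not, with -1.75 to -0.12 at L4 and 0.18 to 0.88 in adults.

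**Figure D4:**
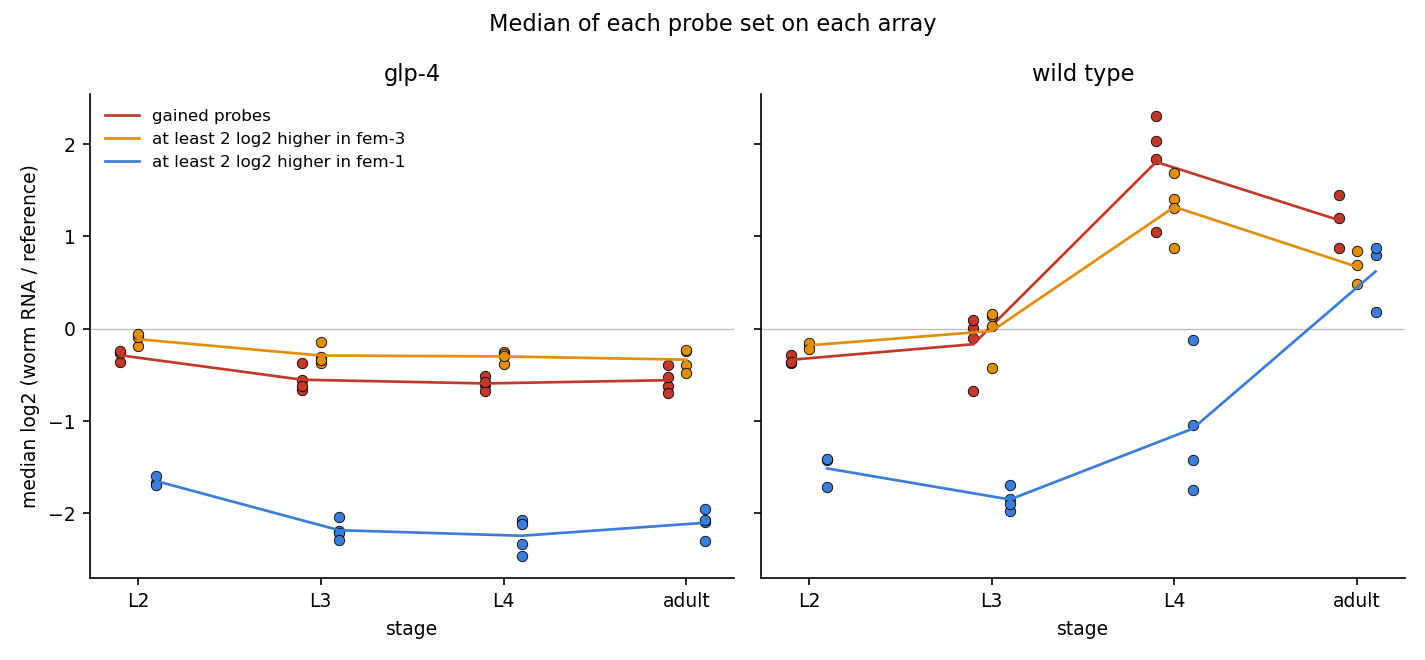
Median log2 ratio of worm RNA over reference (vertical) on each array by stage (horizontal) in glp-4 (left) and wild type (right), for the gained probes and for probes at least 2 log2 higher in fem-3 or in fem-1; points are arrays and lines join group means. In wild type the gained probes reach 1.05 to 2.31 at L4 and 0.88 to 1.45 in adults, and in glp-4 they stay between -0.70 and -0.24 at all stages.

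Single genes differed in what was left of the difference in adults. F10D11.3 kept 5.99 ± 0.75 and T08B2.12 4.32 ± 0.36, while 30 gained probes were not called in adults. Among them were phyh-1 (0.63, adjusted p = 0.112), ptp-5.1 (0.57, adjusted p = 0.106), txt-1 (0.05, adjusted p = 0.913) and ZC581.7 (0.25, adjusted p = 0.572). From L4 to the adult the difference shrank by a called amount for 37 of the 270 and grew for 1, against 1.72% and 4.95% of all tested probes. It changed by -1.65 for spsp-1 (adjusted p = 0.0198), -1.54 for txt-1 (adjusted p = 0.0176), -1.48 for ZC581.7 (adjusted p = 0.0424) and -1.32 for phyh-1 (adjusted p = 0.0499). The change from L4 to the adult shares the L4 arrays that picked the probes, which favours a shrinking difference. Its counts and p-values are therefore a description.

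The gained genes lay almost all on autosomes. Of 198 gained genes placed on a chromosome, 1 (0.505%) was on X, against 738 of 4566 (16.2%) among genes tested. Chromosome I held 52 (26.3%, against 14.4% of genes tested) and IV held 48 (24.2%, against 16.1%). Chromosome V held 31 (15.7%, against 23.2%), II held 42 and III held 24. The gene on X, D1053.5, is listed as a noncoding RNA. It read -1.59, -0.97, -1.44 and -1.37 on the glp-4 L4 arrays, against 1.59, 2.25, 0.42 and -0.18 on the wild-type L4 arrays. At L3 it read -1.15, -1.47, -1.73 and -1.43 in glp-4, against -2.52, -1.37, -1.47 and -1.77 in wild type. Its growth was 2.70 ± 0.55 (SE, adjusted p = 0.00516), and it was 4.28 ± 0.17 higher in fem-3. Genes expressed in sperm are known to be scarce on the X chromosome of this species.

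**Figure D5:**
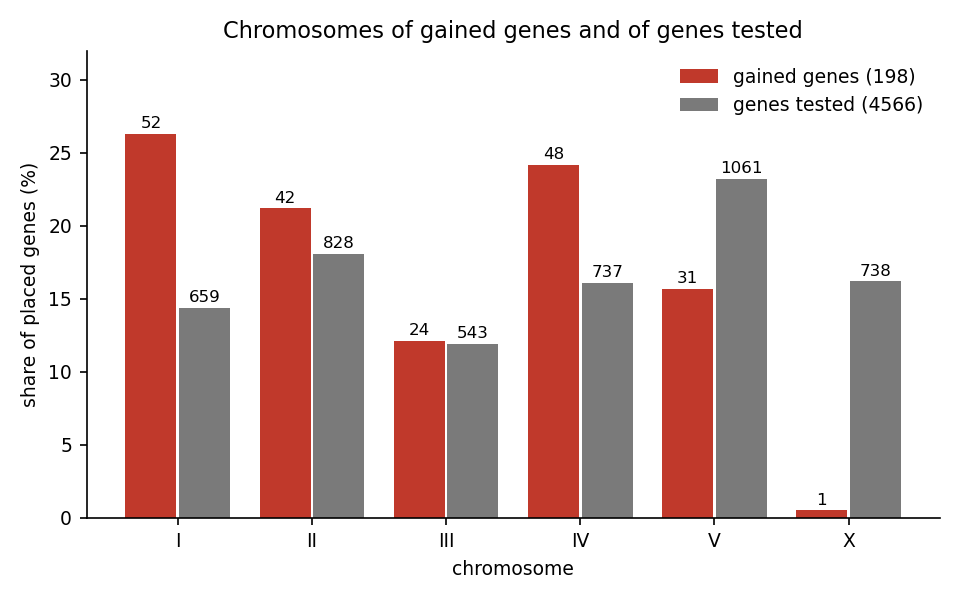
Share of placed genes (vertical, percent) on each chromosome among the 198 gained genes (red) and the 4566 genes tested (grey), with counts above the bars. Gained genes make up 26.3% on chromosome I and 0.505% on X, where genes tested make up 14.4% and 16.2%.

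The gained protein-coding genes spanned a median of 1446 bases in the reference gene table, against 1914 bases for all protein-coding genes tested. Listed pseudogenes made up 5.05% of gained genes and 6.31% of those tested. Direct neighbours among the gained genes formed 8 pairs out of 197 genes in order along the chromosomes, among them msrp-5 with msrp-6 on II, msrp-2 with ZK484.6 on I, ttbk-8.1 with Y38H8A.4 on IV and melo-3 with C25D7.2 on V. No share over all genes tested is given beside these pairs, so their number does not show whether gained genes cluster.

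mip-1, tost-1, syp-6 and nucl-1 were higher in wild type at both stages without a called growth. mip-1, which builds germ granules, averaged -3.66 ± 0.15 in glp-4 and -0.58 ± 0.71 in wild type at L4, and -3.30 ± 0.52 in glp-4 and -1.07 ± 0.53 in wild type at L3 (SD, n = 4 each). Its strain difference was called at L4 (3.08) and at L3 (2.23), and its growth of 0.85 ± 0.43 was not (adjusted p = 0.549). tost-1, part of the machinery that matures small RNA precursors, had 1.87 at L4 and 0.96 at L3, with a growth of 0.90 ± 0.38 (adjusted p = 0.35). syp-6, of the synaptonemal complex that joins meiotic chromosomes, had 1.79 at L4 and 1.05 at L3, with a growth of 0.74 ± 0.32 (adjusted p = 0.382). nucl-1, the worm nucleolin, had 1.85 at L4 and 1.58 at L3, with a growth of 0.28 ± 0.34 (adjusted p = 0.911). sluh-7, a splicing factor, had 0.89 at L4 (adjusted p = 0.0198) and 0.39 at L3, which was not called (adjusted p = 0.503), with a growth of 0.51 ± 0.38 (adjusted p = 0.789).

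No gene gained in the lists of small RNA and germ granules (13 tested, median growth 0.44), meiosis and chromosomes (5, 0.22), DNA replication (4, 0.15), ribosome biogenesis (13, 0.28) or splicing (15, 0.07) by limma. Of all tested probes 2.47% gained, so lists this short could well hold 0. At an unadjusted p below 0.05 the growth was positive for 2 of the 13 small RNA genes and 1 of the 5 meiosis genes, and for 0 in the other 3 lists. It was positive at that p for 6.29% of all tested probes. At L4 wild type was higher for 6 of 13 small RNA genes, 3 of 5 meiosis genes, 2 of 4 replication genes, 5 of 13 ribosome biogenesis genes and 4 of 15 splicing genes, against 12.1% of all tested probes. At L3 the counts were 2, 3, 1, 1 and 1, against 2.19%. In adults they were 10, 4, 4, 9 and 13, against 21.2%.

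The oocyte and eggshell list had 5 tested genes, cpg-19, cpg-20, cpg-22, memi-3 and oops-1, a median growth of 0.19 and no called or unadjusted growth in either direction by limma. Wild type was higher for 2 of the 5 at L4 and for 0 at L3, against 12.1% and 2.19% of all tested probes. From L3 to L4 a wild-type rise was called for 1 of the 5, against 5.5% of all tested probes. A glp-4 change was called for 1 of the 5, where 0.357% of all tested probes rose and 0.0274% fell. The list's array medians at L4 were -1.48 to -0.58 in glp-4 and -1.22 to 0.56 in wild type, the highest of these on 1 array. At L3 they were -1.36 to -0.83 in glp-4 and -1.08 to -0.34 in wild type.

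No carboxylesterase gained or was lost (26 tested, median growth -0.28), with 0 larger and 2 smaller at an unadjusted p below 0.05 in limma. Of all tested probes 2.47% gained and 0.165% were lost, and 6.29% were larger and 3.56% smaller at that unadjusted p. Yet 11 of the 26 carboxylesterases were lower in wild type at L4, against 8.24% of all tested probes. Counted with cpr-9, the intestinal markers had array medians of 0.89 to 1.17 in glp-4 and -0.01 to 0.58 in wild type at L4, and of 0.39 to 0.88 in glp-4 and 0.01 to 0.39 in wild type at L3. The neuronal markers tested were 12 nlp genes, of which 0 gained and 0 were lost by limma, with 0 in either direction at an unadjusted p below 0.05. Both collagen and cuticle genes tested missed the threshold (median growth -0.86), with 0 larger and 1 smaller at an unadjusted p below 0.05 in limma. ule-3, the uterine marker tested, had a growth of 1.17 ± 0.60 (adjusted p = 0.556), a glp-4 change of 0.35 and a called wild-type rise of 1.52. Markers of hypodermis and of muscle in the lists used had no probe. cld-1 was lower in wild type at both stages (-2.73 at L4 and -2.42 at L3), with a growth of -0.32 ± 0.65 (adjusted p = 0.949). amdh-1 had a growth of -0.43 ± 0.56 (adjusted p = 0.914) and was not called between strains at either stage.

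The 18 lost probes (0.165% of those tested) had a median growth of -1.64. On the arrays that picked these probes, as a description, glp-4 changed by a median of 0.62 and wild type by a median of -1.15. A wild-type fall was called for 11, against 1.91% of all tested probes. A glp-4 rise was called for 0, with 10 at an unadjusted p below 0.05 in limma, against 0.357% of all tested probes called. The wild-type part was the larger for 12 probes and the glp-4 part for 6. At L4 wild type was lower for 14 of the 18, and at L3 it was higher for 3, against 8.24% and 2.19% of all tested probes. In adults, whose arrays entered only the spread of the test, 8 of the 18 were lower in wild type (20.4% of all tested probes were). On the fem arrays, not used by the growth, 1 of the 18, pugs-2, was higher in fem-3, against 19.1% of all tested probes. By limma 0 of the 18 were lower in fem-3, at an adjusted or unadjusted p below 0.05, where 16.7% of all tested probes were called lower. From L4 to the adult 15 of the 18 fell in glp-4, against 5.72% of all tested probes, a change that shares the L4 arrays. The wild-type array medians of the lost probes at L4 ran from -0.69 on replicate 2 to 0.61 on replicate 4, and only replicate 4 reached the glp-4 range of 0.57 to 1.21. At L3 the medians were 0.12 to 0.63 in glp-4 and 0.83 to 1.51 in wild type.

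Named losses numbered 7. gphr-2, named for a Golgi pH regulator and on X, read 0.49, 0.41, 0.63 and 0.62 on the glp-4 L4 arrays, against -0.27, 0.13, -0.05 and 0.15 on the wild-type L4 arrays. L3 arrays gave 0.23, 0.16, 0.10 and 0.13 in glp-4, against 0.02, 0.19, 0.54 and 0.42 in wild type. The glp-4 L4 arrays were above all others of that strain and above wild-type L4, and the growth was -0.69 ± 0.18 (SE, adjusted p = 0.0367), with the glp-4 part the larger. pugs-2 (chromosome II) read 0.38, 0.87, 1.39 and 1.14 on the glp-4 L4 arrays, against -0.73, -0.95, -0.62 and 0.45 on the wild-type L4 arrays. On the L3 arrays it had 1.23, 0.94, 1.03 and 0.74 in glp-4, against 1.20, 1.29, 1.56 and 0.94 in wild type. Wild type was lower on every L4 array than on any L3 array, replicate 4 least, and the growth was -1.67 ± 0.44 (SE, adjusted p = 0.0386), from a glp-4 change of -0.04.

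F26E4.3 (chromosome I) read 0.49, 0.68, 0.80 and 0.59 on the glp-4 L4 arrays, against -0.60, -0.94, -0.41 and -0.12 on the wild-type L4 arrays. Its L3 readings were -0.62, -0.06, 0.72 and 0.54 in glp-4, against 0.93, 0.62, 0.54 and 0.33 in wild type. At L4 wild type was below glp-4 on every array, at L3 the strains overlapped, and the growth was -1.61 ± 0.39 (SE, adjusted p = 0.019). C05C8.7 (chromosome V) read 0.97, 1.04, 1.39 and 0.83 on the glp-4 L4 arrays, against 0.22, 0.05, 0.15 and 0.68 on the wild-type L4 arrays. Its L3 values were 0.50, 1.20, 1.54 and 0.82 in glp-4, against 1.23, 1.27, 1.46 and 1.23 in wild type. Wild type was lower on every L4 array than on any L3 array. The growth was -1.07 ± 0.28 (SE, adjusted p = 0.0376), with a called wild-type fall of -1.02 and a glp-4 change of 0.04.

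The glp-4 part was the larger for 3 further genes too. F37C4.6 (chromosome IV) read 2.19, 2.31 and 2.03 on the 3 glp-4 L4 arrays with a value, against 0.82, 0.73, 1.22 and 1.52 on the wild-type L4 arrays. For L3 the values were 1.54, 1.61, 1.77 and 1.44 in glp-4, against 1.40, 1.78, 1.35 and 1.33 in wild type, and the growth was -0.98 ± 0.24 (SE, adjusted p = 0.0259). Y26E6A.2 (chromosome X) had 0.04, 0.83, 0.83 and 0.90 at L4 in glp-4, against -0.81, -0.47, -0.47 and 0.18 in wild type. At L3 it had -0.11, 0.16, 0.04 and -0.10 in glp-4, against -0.17, -0.23, 0.19 and 0.09 in wild type, and a growth of -1.01 ± 0.28 (SE, adjusted p = 0.0498). F25D1.3 (chromosome V) had 0.94, 1.75, 1.98 and 2.37 at L4 in glp-4, against -0.45, -0.92, -0.52 and 1.00 in wild type. At L3 it had -0.37, 1.56, 0.29 and -0.46 in glp-4, against 0.43, 1.77 and 0.68 on the 3 wild-type arrays with a value, and a growth of -2.68 ± 0.70 (SE, adjusted p = 0.0478). The glp-4 changes of F37C4.6, Y26E6A.2 and F25D1.3 were 0.59, 0.65 and 1.50, none of them called.

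The losses were less steady than the gains. With the batch as a block over all arrays the growth was still called for F26E4.3 and no longer for gphr-2 (adjusted p = 0.0544), pugs-2 (0.0606), C05C8.7 (0.0663), F37C4.6 (0.0592), Y26E6A.2 (0.0508) and F25D1.3 (0.0606). Leaving out 1 array ended the call of F26E4.3 for wild-type L4 replicate 2 and glp-4 L3 replicate 1 (-1.81 to -1.36 over all arrays left out in turn), and of the other 6 for 7 to 13 of the 16 arrays. With each strain's batch as a block the calls of F26E4.3 and C05C8.7 were kept and those of the other 5 lost, and with the 16 arrays alone F26E4.3 was the 1 of 7 to be called. Without wild-type L4 replicate 4 there were 384 gained and 101 lost probes, and with each strain's batch as a block 308 and 38. On the mixed control arrays alone limma called 0 probes in either direction, with 334 larger and 59 smaller at an unadjusted p below 0.05. On the REF-vjr arrays alone 170 gained and 2 were lost. There limma no longer called C45G9.4 (adjusted p = 0.364), ZC581.7 (0.503), nssp-47 (0.202), txt-1 (0.195), phyh-1 (0.222), ptp-5.1 (0.138), msrp-6 (0.0976) or T01C3.3 (0.0696). Nor did it call the losses of F26E4.3 (0.156), gphr-2 (0.26), Y26E6A.2 (0.372), C05C8.7 (0.305) or pugs-2 (0.188).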

How the data were processed

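Whole-worm RNA was measured on 34 spotted 2-colour arrays. The authors deposited 1 log ratio per probe and array, red over green, read here as log2; its base, the normalization and the spot filters are stated in none of the sources at hand. Red held the reference on the 29 reference arrays, per the labels, so their sign was turned to worm RNA over reference. On the 5 fem arrays red held fem-3(q23). No spot intensities were used, so whether a value lay at background is unknown, and the number of arrays limits the precision. All columns were mapped to samples.

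The 29 reference arrays were fitted as 8 group means with limma 3.58.1 in R 4.3.3, and p-values were adjusted by the Benjamini-Hochberg method over the 10936 probes with at least 2 values in each L3 and L4 group. The threshold was an adjusted p of 0.05. The fem arrays were tested against 0 where at least 3 held a value. The procedure was tested on simulated data.

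Batch numbers come from the labels and pair the samples. Deviations from the group means had a median correlation of 0.16 over 24 same-numbered pairs (-0.12 to 0.47, 17 over 0.1), of 0.32 within strains, and of -0.08 between different numbers, over 8755 complete probes.

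The members and lists were chosen with earlier results of these data known. Genes named were all called genes with a gene-class symbol, the 10 largest gains and 5 largest losses among sequence names, the largest gains of other kinds, and a preset list; D1053.5, T08B2.12 and T01C3.3 were singled out after their values were seen. Gene names came from the platform annotation for 5582 probes, of which 5559 matched the reference gene table. Alternatives covered the arrays fitted, batch and reference wording as blocks, scaling, value minimums, the empirical Bayes settings and each array left out.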

Additional observations from a re-analysis of the deposited data

Results flagged for a closer look

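Single arrays stood apart from the other 3 of their group for 12 of 222 groups of values examined; chance flags about 1 in 20 groups. Wild-type L3 replicate 4 was the low array for R09E10.6 (-3.86, others -1.11 to -0.63), T23B3.5 (-2.34, others -0.67 to -0.41) and msrp-5 (-0.87, others -0.36 to -0.27). It also had the lowest wild-type L3 median over the gained probes, and its part in these results was not tested further than by leaving it out. glp-4 L3 replicate 3 was the high array for ttbk-4 (-0.03, others -0.64 to -0.59) and mip-1 (-2.52, others -3.60 to -3.51).

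Among the remaining values, F10D11.3 read -4.50 on glp-4 L4 replicate 2 (others -4.29 to -4.25) and clc-10 read -0.68 on glp-4 L4 replicate 4 (others -1.26 to -1.18). C05B5.2 read 1.72 on glp-4 L3 replicate 1 (others -1.35 to -1.10). ZC581.7 read 1.84 on wild-type L4 replicate 2 (others 2.15 to 2.17) and 2.25 on wild-type L3 replicate 3 (others 0.86 to 0.97). sluh-7 read 0.50 on wild-type L3 replicate 2 (others -0.21 to -0.13), and Y26E6A.2 read 0.04 on glp-4 L4 replicate 1 (others 0.83 to 0.90).

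The change from L3 to L4 differed between the strains, by the limma test of that difference itself, for 270 probes in one direction and 18 in the other.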

How the results depend on the processing

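The count of gained probes was 270 and ran from 195 to 384 with each array left out in turn; it was 180 with the 16 arrays alone (173 shared), 170 on the REF-vjr arrays alone and 0 on the mixed control arrays alone, where fewer arrays were fitted. The 18 losses became 5 to 101 with an array left out (101 without wild-type L4 replicate 4), 6 with the 16 arrays alone, 38 with the replicate block within strain, 7 after quantile normalization, 10 with at least 4 values per group, 2 on the REF-vjr arrays and 0 on the mixed control arrays. Gains with a called wild-type rise alone numbered 195 to 379 with an array left out, 169 on the REF-vjr arrays and 0 on the mixed control arrays. A glp-4 fall alone was called for 0 to 1 gained probes with an array left out, and 1 was of that kind by the larger part. Neither change was called for 0 to 4 with an array left out, 5 with the replicate block within strain, and 0 with the 16 arrays alone, on the mixed control arrays or after quantile normalization. Where not given here, the cause was not tested. The replicate block over all arrays gave 282 gained and 17 lost probes, of which 258 and 10 were shared with the counts above, and the batch pairing changed no call of a named gene beyond those given in the report. Over the named genes and alternatives, 1102 values kept direction and side of the threshold, 237 lost and 6 gained the call, and 0 of the called values reversed. Without spot intensities, signal over background could not be assessed.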
